A study of Mus musculus with 6 samples.

Results

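The S100 proteins are small calcium-binding proteins, and 10 of their genes (*S100a1*, *S100a4*, *S100a6*, *S100a8*, *S100a9*, *S100a10*, *S100a11*, *S100a13*, *S100a16* and *S100b*) were followed in M0505 and STOSE cells. The members were taken by gene symbol from the deposited table, using the probe set of each gene whose average over the 6 arrays was highest, and make up 10 of the 20405 genes measured. M0505 is a line of ovarian surface epithelial cells from FVB/N mice, and STOSE is the line that arose when M0505 cells transformed spontaneously during long passage, so both lines share their strain and their origin. M0505 cells were used at early passage, both lines were grown in the same serum-containing medium with EGF and ITSS, and the labels name no other treatment for either. There were 3 arrays for M0505 and 3 for STOSE, labelled as biological replicates. Each group is a single cell line, so the spread between arrays is that of cultures of this line and not of independent transformations.

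Each S100 protein carries a pair of EF-hands, which are loops that hold calcium in most of these proteins. When calcium enters the cell, most S100 dimers open a surface that grips a partner protein, such as an annexin at the membrane or a myosin in the cytoskeleton. Some members are also released from cells and act on receptors such as RAGE, encoded by *Ager*, and TLR4. *S100a4*, also called metastasin, is known for cell motility and for its use as a marker of fibroblasts and of cells that have lost epithelial features, while *S100a8* and *S100a9* are known from neutrophils and *S100b* from glia and melanocytes.

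RNA levels are RMA values on a log2 scale, where 1 unit is a doubling, and they allow arrays to be compared for the same gene but not the levels of different genes. The median over all genes ranged from 6.46 to 6.49 on the M0505 arrays, and on the STOSE arrays from 6.25 to 6.29. Centring the arrays on these medians would raise every log2 fold change by 0.20, which is of the size of most differences of the S100 genes below. The median log2 fold change of all genes was already positive as deposited, at 0.077, so centring makes it larger. A pass with centred arrays below includes this common shift. As a measure of background, the 95th percentile of the 1134 probe sets of olfactory receptor genes was 4.74. Of 12 markers of the labelled tissue, 11 were above this background in both lines, including *Wt1*, *Upk3b* and *Krt18*. Of the 12 markers, 4 (*Krt7*, *Krt8*, *Krt19* and *Bnc1*) were called lower in STOSE cells (7.59% of all genes). By the adjusted p alone 10 were lower (24.8% of all genes). For 11 all STOSE arrays were below all M0505 arrays (27% of all genes).

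*S100a4* was the member that differed most between the lines. Its RMA value was 8.29, 8.29 and 8.36 on the M0505 arrays and 10.62, 10.75 and 10.64 on the STOSE arrays. All STOSE arrays were above all M0505 arrays, and the gap between the lines was far wider than the spread within either. The log2 fold change was 2.36 (standard error 0.061, 95% confidence interval 2.22 to 2.50, adjusted p = 2.41e-08 from limma), or 5.13-fold. This gene ranked 131 by fold change among the 1000 genes called higher in STOSE cells, where a gene was called at an adjusted p under 0.05 and a change of at least 2-fold. The study itself singled out *S100a4* on these arrays, so its rise here is not independent evidence. The paper also measured *S100a4* by quantitative RT-PCR, in samples of both lines other than those put on the arrays.

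*S100a4* was the only member called in either direction. With 1 of 10 members called higher, the share can be read against 4.90% of all genes called higher, and with 0 of 10 called lower, against 7.59% of all genes called lower. For the lower direction limma gave 1 member at an unadjusted p under 0.05 and the methods' t-test called 0. By the adjusted p alone, 3 members were higher (31.6% of all genes), 1 was lower (24.8% of all genes) and 6 passed in neither direction, so that 4 passed in either (56.5% of all genes). The 3 STOSE arrays lay above the 3 M0505 arrays for 5 members (37.6% of all genes) and below them for 1 member (27% of all genes), so the arrays did not overlap for 6 members (64.6% of all genes) and overlapped for 4. The counts depended on the scaling. At 2-fold, centred arrays gave 1466 genes called higher and 1177 lower, against 1000 and 1548 as deposited, with the same counts of members. With centred arrays 7 members were higher by the adjusted p alone, beside 62.4% of all genes, and 1 was lower, beside 18.6%. After a further quantile normalization 4 members were higher, beside 31.5% of all genes, and 1 was lower, beside 23.6%. The median log2 fold change of the members was 0.12, beside 0.077 over all genes.

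**Figure D1:**
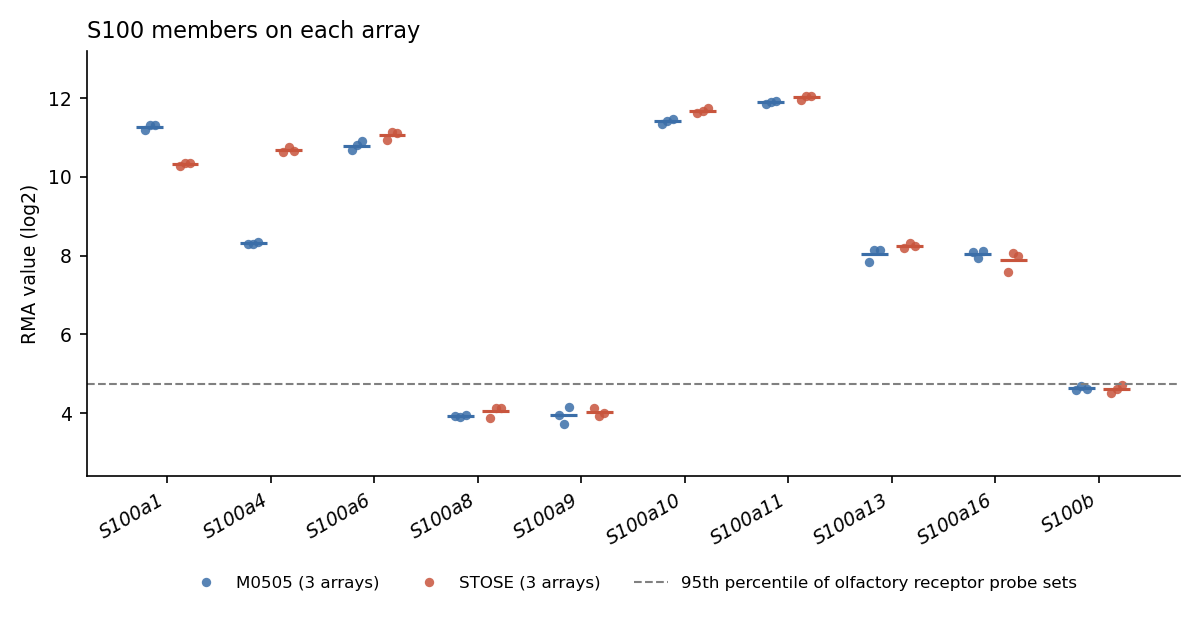
RMA values (log2, vertical axis) of the 10 S100 members on each of the 3 M0505 and 3 STOSE arrays, with points for arrays and short lines for the mean of each line. *S100a4* is higher and *S100a1* lower in STOSE cells with no overlap, and *S100a8*, *S100a9* and *S100b* lie under the dashed background line at 4.74.

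*S100a4* exceeded the log2 fold changes of the other 9 members by 2.09 (*S100a10*) to 3.31 (*S100a1*), which is a description, since the gene with the largest change was set against the rest. The confidence interval of *S100a4* did not overlap that of any other member, and neither did that of *S100a1*. Between these extremes, the intervals of the next members in order of change, from *S100a10* down to *S100a16*, overlapped their neighbours.

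The S100 genes that flank *S100a4* did not share the size of its change. In RefSeq order on chromosome 3, *S100a3*, *S100a2*, *S100a4*, *S100a5* and *S100a6* follow each other with no other measured gene between them. The log2 fold changes were 0.46 for *S100a3*, 0.34 for *S100a2*, 0.31 for *S100a5* and 0.27 for *S100a6*, against 2.36 for *S100a4*. The sequences before the start of transcription are shown for *S100a4* and its neighbour *S100a6*, with those of *S100a8*, which was at background, and *S100a11*, which was well above background in both lines. They are the 250 bases before each RefSeq start in GRCm38.p6, all on the + strand and 5′ to 3′, at chr3:90603520-90603769, chr3:90612644-90612893, chr3:90668821-90669070 and chr3:93520246-93520495 in the order given. Capitals mark matches to 4 motifs searched on both strands. They are the TATA box written as TATAAA, the site of the factor AP-1 written with any base in its middle as TGANTCA, the GC box that Sp1 is known to bind written as GGGCGG, and the E box of helix-loop-helix factors written as CACGTG.
S100a4: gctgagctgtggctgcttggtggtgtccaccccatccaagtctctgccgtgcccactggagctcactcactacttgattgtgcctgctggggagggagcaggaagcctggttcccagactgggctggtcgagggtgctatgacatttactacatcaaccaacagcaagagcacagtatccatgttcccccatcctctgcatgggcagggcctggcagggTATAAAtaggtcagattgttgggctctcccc
S100a6: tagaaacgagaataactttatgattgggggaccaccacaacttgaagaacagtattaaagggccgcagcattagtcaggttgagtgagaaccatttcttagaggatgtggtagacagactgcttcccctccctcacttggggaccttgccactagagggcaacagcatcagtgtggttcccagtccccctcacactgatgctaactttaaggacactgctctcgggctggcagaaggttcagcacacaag
S100a8: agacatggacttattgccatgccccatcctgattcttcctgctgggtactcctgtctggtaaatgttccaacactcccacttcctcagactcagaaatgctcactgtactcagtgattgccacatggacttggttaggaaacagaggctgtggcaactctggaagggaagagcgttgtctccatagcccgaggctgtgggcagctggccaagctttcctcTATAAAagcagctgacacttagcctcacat
S100a11: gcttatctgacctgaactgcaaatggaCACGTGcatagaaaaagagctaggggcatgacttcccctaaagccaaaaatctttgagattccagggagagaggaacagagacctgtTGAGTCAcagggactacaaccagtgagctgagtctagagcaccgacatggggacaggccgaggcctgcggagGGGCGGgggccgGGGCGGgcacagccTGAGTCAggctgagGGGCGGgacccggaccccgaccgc

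In this window *S100a4* had TATAAA with its first base 31 bases before the start and *S100a8* had it at 30 bases, while *S100a6* held none of the 4 motifs. Of the other genes that flank *S100a4*, *S100a3* has several RefSeq starts. It had TATAAA 52 bases before a start and GGGCGG 116 bases before another. *S100a5* held none of the 4 motifs, and no window was given for *S100a2*. TATAAA was thus not particular to *S100a4* among these genes. *S100a11* had TGANTCA at 136 and 38 bases, GGGCGG at 64, 52 and 24 bases and CACGTG at 223 bases before the start. Over all 32851 promoter windows of this length, 12.4% held TATAAA, 6.75% TGANTCA, 32.7% GGGCGG and 6.02% CACGTG. RefSeq windows were given for 9 of the 10 members. A match is a string of letters and not a measured site.

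*S100a1*, which binds calcium pumps and channels in muscle and is found in other cells too, was the member with the lowest log2 fold change. Its RMA value was 11.18, 11.32 and 11.31 in M0505 cells and 10.27, 10.34 and 10.35 in STOSE cells. All STOSE arrays were below all M0505 arrays. The log2 fold change was −0.95 (standard error 0.063, 95% confidence interval −1.09 to −0.80, limma adjusted p = 4.45e-06), which is 1.93-fold and just short of the 2-fold needed for a call. With each array left out in turn the difference stayed between 1.90-fold and 1.99-fold, and with each array centred on its median the log2 fold change was −0.75.

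*S100a13*, which helps to export proteins such as FGF1 that lack a signal peptide, starts head to head with *S100a1*. In RefSeq the 250 base windows before the starts of these genes lie on opposite strands and share 104 bases. The RMA value of *S100a13* was 7.83, 8.15 and 8.13 in M0505 cells and 8.18, 8.31 and 8.25 in STOSE cells. The STOSE arrays were all above the M0505 arrays, narrowly, and the first M0505 array stood lowest. The log2 fold change was 0.21 (standard error 0.093, 95% confidence interval 0.00049 to 0.43) with a limma adjusted p of 0.0811, so the difference did not pass. It was 0.11 without M0505 replicate 1, and it passed the adjusted p at 0.29 after a further quantile normalization (adjusted p = 0.0376) and at 0.42 with centred arrays (0.00439) in limma.

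*S100a10* and *S100a11* are among the members known to bind annexins, *S100a10* as the p11 chain bound to annexin A2 and *S100a11* as a partner of annexin A1. *S100a10* was 11.35, 11.41 and 11.46 in M0505 cells and 11.61, 11.68 and 11.74 in STOSE cells, with no overlap. This difference of 0.27 on the log2 scale (standard error 0.063, limma adjusted p = 0.00667) passed the adjusted p but was 1.20-fold. *S100a11* was 11.85, 11.91 and 11.92 in M0505 cells and 11.95, 12.06 and 12.06 in STOSE cells. Its arrays did not overlap either, but the log2 fold change of 0.13 (standard error 0.060, limma adjusted p = 0.103) did not pass, though it did with centred arrays (0.33, adjusted p = 0.00193). The other probe set of *S100a11* was 11.75, 11.81 and 11.81 in M0505 cells and 11.85, 11.93 and 11.95 in STOSE cells. Its log2 fold change was 0.12. Its number falls between those of the probe sets of *Tchhl1* and *S100a10*, the genes on either side of *S100a11* in RefSeq order. The number of the probe set used here does not, so its values may come from a copy elsewhere. RefSeq lists a pseudogene of this gene, *S100a11-ps*, and signal from near-identical copies cannot be told apart on the array. Which probe set reads the gene itself was not settled.

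*S100a6*, or calcyclin, is known from dividing cells and binds the protein encoded by *Cacybp*. Its RMA value was 10.68, 10.80 and 10.90 in M0505 cells and 10.94, 11.13 and 11.12 in STOSE cells. The STOSE arrays were all above the M0505 arrays, the lowest by a narrow margin. The log2 fold change of 0.27 (standard error 0.081, 95% confidence interval 0.081 to 0.45, limma adjusted p = 0.0216), or 1.20-fold, passed the adjusted p alone. That pass was lost without M0505 replicate 1 (adjusted p = 0.0641), M0505 replicate 2 (0.0563), STOSE replicate 2 (0.0736) or STOSE replicate 3 (0.0694) in limma.

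*S100a16*, a widely expressed member, overlapped between the lines. It was 8.08, 7.95 and 8.12 in M0505 cells and 7.59, 8.05 and 7.99 in STOSE cells, the first STOSE array standing apart from the other two. The log2 fold change was −0.17 (standard error 0.12, 95% confidence interval −0.45 to 0.10, limma adjusted p = 0.250), and it was −0.030 without STOSE replicate 1 and 0.028 with the arrays centred on their medians.

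The members known from myeloid and glial cells were under the background of 4.74 in both lines. *S100a8* was 3.92, 3.90 and 3.96 in M0505 cells and 3.87, 4.13 and 4.13 in STOSE cells. *S100a9*, its partner in the heterodimer calprotectin, was 3.96, 3.73 and 4.14 in M0505 cells and 4.13, 3.93 and 4.00 in STOSE cells. *S100b* was 4.58, 4.70 and 4.62 in M0505 cells and 4.51, 4.61 and 4.72 in STOSE cells. The arrays of the lines overlapped for all 3 genes, and no difference passed (limma adjusted p = 0.252, 0.572 and 0.811), although with centred arrays *S100a8* (0.32, adjusted p = 0.00977) and *S100a9* (0.28, adjusted p = 0.0456) passed the adjusted p while under the background. At such levels a change in RNA was not detectable on these arrays. Among 13 markers of neutrophils and macrophages, 10 were under the background in both lines, among them *Ptprc*, *Itgam*, *Csf1r* and *Csf3r*. In the same list *Cd68* fell by 2.82, and the summed linear level ranged from 924 to 1203 on the M0505 arrays and from 328 to 377 on the STOSE arrays. Such a sum follows the brightest probe sets, here mostly *Cd68* (9.78 in M0505 cells and 6.96 in STOSE cells). Of the 8 markers of glia and melanocytes, 3 were under the background in both lines.

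**Figure D2:**
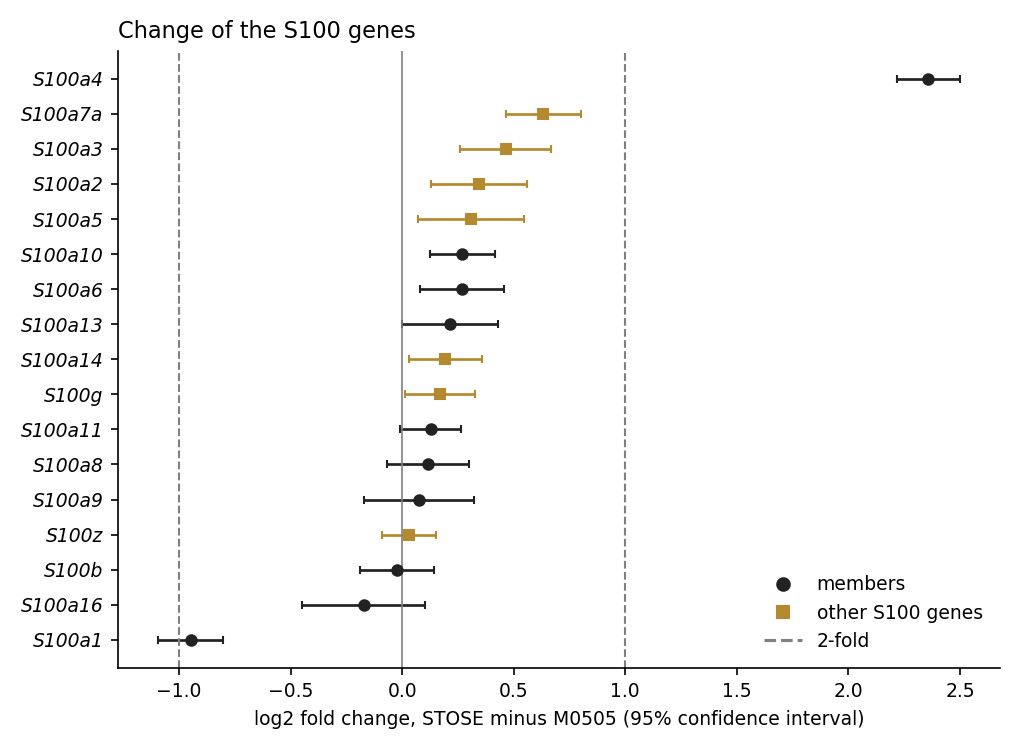
Log2 fold change (STOSE minus M0505, horizontal axis) with its 95% confidence interval from limma for the 10 members (circles) and the other 7 S100 genes of the table (squares). *S100a4* at 2.36 is past the dashed 2-fold line, *S100a1* at −0.95 lies just inside the opposite one, and the other genes lie between −0.17 and 0.63.

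The table held 7 further S100 genes, 6 of them in a list written for this comparison and *S100a2* added after its values were seen. Of these 6, 0 were called higher (4.90% of all genes) and 0 lower (7.59% of all genes) by limma. At an unadjusted p under 0.05 limma gave 5 higher and 0 lower, and the methods' t-test called 0. For all 6 the STOSE arrays were above the M0505 arrays (37.6% of all genes), and by the adjusted p alone 4 were higher (31.6% of all genes) and 0 lower. *S100a7a*, a skin member, had the largest difference, from 5.27 ± 0.11 (SD, n = 3) to 5.90 ± 0.064 (SD, n = 3), a log2 fold change of 0.63 (standard error 0.073, adjusted p = 0.000112 from limma). *S100a3*, known from hair, was at 5.38 ± 0.17 and 5.85 ± 0.055 (SD, n = 3 each), a log2 fold change of 0.46 (standard error 0.088, adjusted p = 0.00216). *S100a5*, *S100a14* and *S100z* were under the background in both lines, and so was *S100a2*. *S100g* was just above it, at 4.76 in M0505 cells and 4.93 in STOSE cells. All 7 genes had means of 5.90 or lower in both lines, and only *S100a7a*, *S100a3* and *S100g* were above the background.

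Of the 10 members, 9 lie on chromosome 3 and *S100b* lies on chromosome 10. The paper karyotyped both lines and found both aneuploid, with too few copies of chromosome 3 in every cell analysed. M0505 cells were near-diploid or near-tetraploid, and STOSE cells were mostly near-triploid, with some polyploid. The part of copy number in the differences below was not tested. From *S100a1* to *S100a10* the RefSeq order of chromosome 3 placed 60 measured genes, made up of 14 S100 genes, 5 fused-type S100 genes, which encode large skin proteins with an S100 domain, and 41 other genes. Many of the latter are cornified envelope genes of stratified epithelium. Of these 41 neighbours, 28 were under the background in both lines. The count called lower was 0 (7.59% of all genes), and 0 also by limma without a fold threshold and by the methods' t-test. The neighbours called higher were 4, beside 4.90% of all genes. They were *Crct1* (log2 fold change 2.86, from 4.89 to 7.75), *Sprr1a* (2.06, from 6.55 to 8.60), *Ivl* (1.24, from 6.89 to 8.13) and *Pglyrp3* (1.08, from 7.58 to 8.67), of which *Sprr1a* and *Ivl* encode proteins of the cornified envelope. The median log2 fold change of the 41 neighbours was 0.13, and over the other 881 genes of the chromosome it was 0.18, with 87 called higher and 41 lower. The share called in either direction was 9.76% of the neighbours and 14.5% of these 881 genes. Of the 881, 245 were under the background in both lines, so these shares and medians do not compare genes of like level. Of the 13 neighbours above the background in either line, 4 (30.8%) were called. That filter also takes in genes that pass the background in STOSE cells alone. None of the 5 fused-type genes was called higher (4.90% of all genes) or lower (7.59% of all genes) by limma. At an unadjusted p under 0.05 limma gave 2 higher and 0 lower, and the methods' t-test called 0. Of 8 keratinocyte markers, 2 (*Krt14* and *Ivl*) were called higher (4.90% of all genes) and 0 lower (7.59% of all genes). The summed linear level of the list ranged from 329 to 348 on the M0505 arrays, against 1203 to 1443 on the STOSE arrays. *Krt14* (from 6.44 to 9.78) had the highest RMA value of the list in STOSE cells and weighs most in that sum. The part of these markers in the differences of the S100 genes was not tested.

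**Figure D3:**
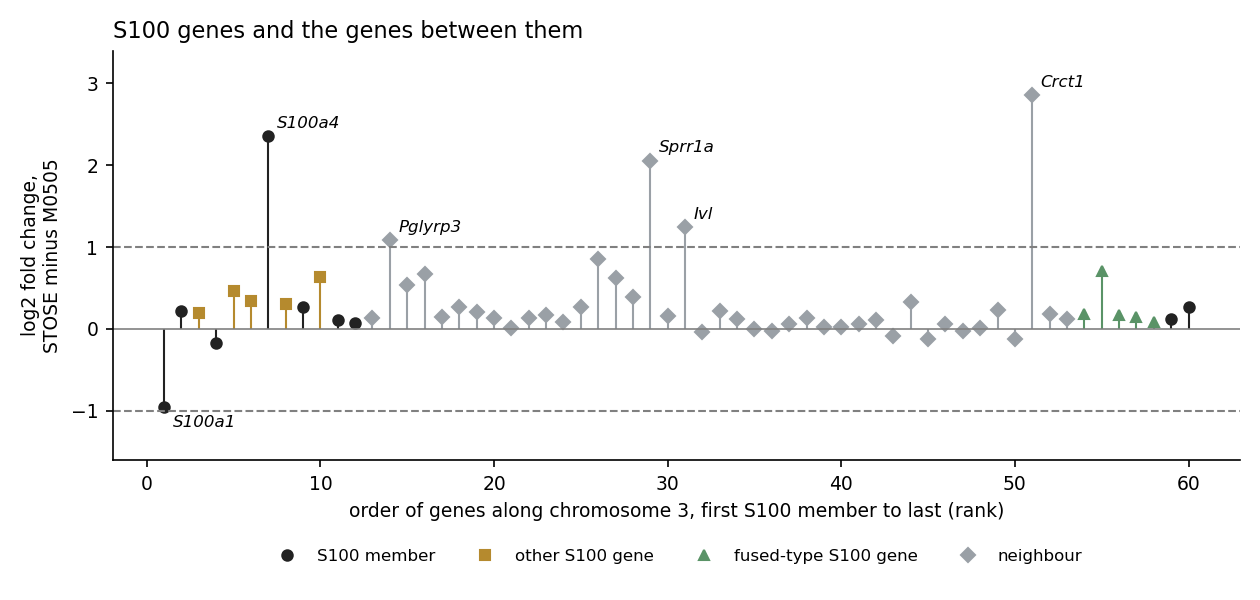
Log2 fold change (STOSE minus M0505, vertical axis) of the 60 measured genes from *S100a1* to *S100a10*, in their RefSeq order along chromosome 3 (horizontal axis, rank). *S100a4* at 2.36 stands between neighbours of 0.27 to 0.46, and 4 genes further along are past the dashed 2-fold line.

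Of 18 proteins known to bind S100 dimers, the genes of 1 were called higher (4.90% of all genes) and of 1 lower (7.59% of all genes). By the adjusted p alone 11 were higher (31.6% of all genes) and 3 lower (24.8% of all genes). *Il1a*, which encodes a cytokine released with the help of *S100a13*, was 3.69, 3.34 and 3.45 in M0505 cells, all under the background, and 6.33, 6.57 and 6.35 in STOSE cells. As only the STOSE level was above background, *Il1a* was at least 3.19-fold higher in STOSE cells, taking the background for the M0505 arrays (limma adjusted p = 1.50e-07 on the measured values). *Anxa6*, which encodes an annexin of the plasma membrane and endosomes, was 11.29, 11.27 and 11.32 in M0505 cells and 9.44, 9.50 and 9.59 in STOSE cells. Its log2 fold change was −1.78 (standard error 0.061, limma adjusted p = 1.15e-07), but −0.93 with the mean of its probe sets, which is under 2-fold. The direction of both differences was the same in the alternatives that kept the gene. *Il1a* was not kept when the dimmest 50% of genes were left out.

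For the main partner of *S100a4*, the heavy chain of nonmuscle myosin IIA encoded by *Myh9*, the log2 fold change was 0.91 (standard error 0.063, limma adjusted p = 5.50e-06), which is 1.88-fold, and it was 1.24 with the mean of its probe sets and 1.11 with centred arrays. *Ppfibp1*, which encodes the *S100a4* partner liprin-β1, had a log2 fold change of −0.70 (standard error 0.067), and *Iqgap1*, a scaffold of the actin cortex, one of 0.82 (standard error 0.079). *Anxa2*, the partner of *S100a10*, was at 10.73 ± 0.032 on the M0505 arrays and at 11.34 ± 0.020 on the STOSE arrays (SD, n = 3 each). This difference of 0.61 on the log2 scale was 1.53-fold. *Anxa1*, the partner of *S100a11*, had a log2 fold change of 0.37, and *Cacybp*, the partner of *S100a6*, one of 0.83. All of these 6 genes passed the adjusted p and were under 2-fold as deposited. With centred arrays *Myh9*, *Cacybp* (1.03) and *Iqgap1* (1.02) passed 2-fold and were called.

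Of 9 genes for surface receptors of released S100 proteins, their co-receptor and their adaptor, 2 were called higher (4.90% of all genes) and 2 lower (7.59% of all genes). *Ager*, the gene of RAGE, was 6.25, 6.32 and 6.15 in M0505 cells and 6.52, 6.20 and 6.22 in STOSE cells, and the arrays overlapped (log2 fold change 0.069, 95% confidence interval −0.15 to 0.29, limma adjusted p = 0.564). For *Ager* it was 0.27 after a further quantile normalization (adjusted p = 0.0309) and 0.27 with centred arrays (adjusted p = 0.0219), so it passed the adjusted p under either scaling but stayed far under 2-fold. *Tlr4* was 9.04, 9.09 and 9.13 in M0505 cells and 7.76, 7.65 and 7.57 in STOSE cells. It fell by 1.43 on the log2 scale (standard error 0.068, limma adjusted p = 7.01e-07). *Ly96*, which encodes the TLR4 co-receptor MD-2, fell by 1.00 (standard error 0.064, limma adjusted p = 3.40e-06), from 10.29 ± 0.033 to 9.29 ± 0.084 (SD, n = 3 each). This lay at the 2-fold threshold, and the call was lost with a further quantile normalization (−0.99), with centred arrays (−0.80), and without M0505 replicate 2 (−0.99), M0505 replicate 3 (−0.99), STOSE replicate 2 (−0.98) or STOSE replicate 3 (−0.98). Without any 1 of these arrays, 1 receptor gene was called lower in place of 2.

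The receptor genes called higher encode adhesion molecules of the immunoglobulin family. *Alcam* was 5.30, 5.14 and 5.23 in M0505 cells and 7.22, 7.13 and 7.01 in STOSE cells. It rose by 1.89 on the log2 scale (standard error 0.075, limma adjusted p = 2.81e-07). *Mcam* was 7.43, 7.90 and 7.70 in M0505 cells and 8.43, 9.15 and 9.22 in STOSE cells. It rose by 1.26 (standard error 0.21, adjusted p = 0.00103), and the first array of each line stood lowest. *Bsg*, which encodes a receptor for *S100a9*, had a log2 fold change of −0.24 (−0.036 with centred arrays), and *Cd36* was under the background in both lines.

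**Figure D4:**
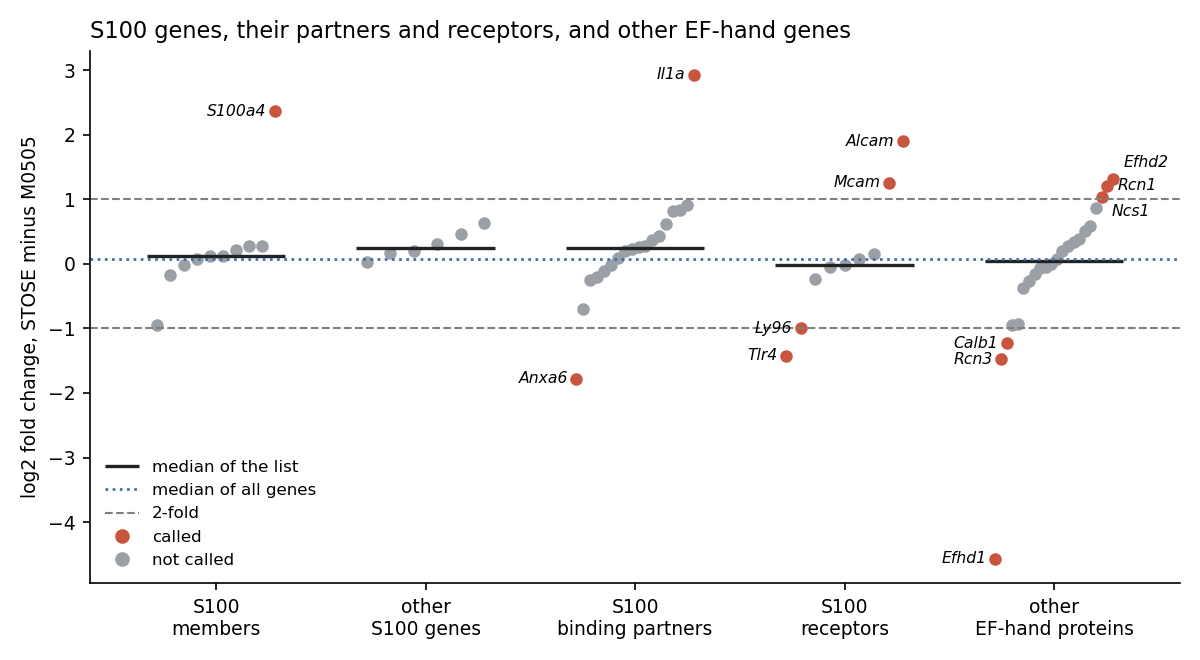
Log2 fold change (STOSE minus M0505, vertical axis) of each measured gene in the list of S100 members, the other S100 genes, their binding partners, their receptors and other EF-hand proteins, with called genes named. The medians of the 5 lists lie between −0.018 and 0.25, beside 0.077 for all genes.

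EF-hand proteins outside the S100 family were described in the same way, since they use the same calcium loop. Of 22 measured, 3 were called higher, 3 lower and 16 in neither direction, and the median log2 fold change was 0.037. *Efhd1*, which encodes a mitochondrial calcium sensor, was at a mean of 9.07 on the M0505 arrays and under the background on all STOSE arrays, so it was at least 20.1-fold lower in STOSE cells (limma adjusted p = 3.46e-07 on the measured values). Its relative *Efhd2* rose by 1.32 (standard error 0.060, adjusted p = 5.34e-07). *Rcn3*, which encodes a protein of the endoplasmic reticulum, fell by 1.48. *Calb1*, which encodes the calcium buffer calbindin, was also called lower, with a mean of 4.83 on the M0505 arrays and 3.60, under the background, on the STOSE arrays, which gives a bound of at least 1.06-fold. The share of called genes was 1 of 10 for the S100 members and 6 of 22 for these genes, and 12.5% of all genes were called in either direction. The difference between these shares was not tested.

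*S100a4* is used as a fibroblast marker, so its rise is given beside other markers of this kind. Of 8 fibroblast markers, 1 (*Thy1*, log2 fold change 1.49) was called higher (4.90% of all genes) and 1 (*Col1a2*, −2.45) lower (7.59% of all genes). By the adjusted p alone 4 were higher (31.6% of all genes) and 2 lower (24.8% of all genes). The summed linear level of the list ranged from 6104 to 6542 on the M0505 arrays, against 6005 to 6373 on the STOSE arrays. *Dcn* (from 11.94 to 11.49) had the highest RMA value of the list and weighs most in that sum, so a similar sum does not mean that each marker was similar. For the markers of the labelled tissue the summed linear level was 32105 to 33900 on the M0505 arrays and 18933 to 20648 on the STOSE arrays. Of these 12 markers, 4 were called lower (7.59% of all genes) and 0 higher (4.90% of all genes). By the adjusted p alone 10 were lower (24.8% of all genes). The count higher was 0 also at an unadjusted p under 0.05 in limma and by the methods' t-test. The part of these markers in the rise of *S100a4* was not tested. In a culture measured as a whole, more cells with the RNA and more RNA per cell cannot be told apart.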

How the data were processed

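RNA of M0505 cells (3 arrays) and STOSE cells (3 arrays) was hybridised to Affymetrix Mouse Gene ST arrays. The authors deposited RMA values on a log2 scale (background corrected, quantile normalized and summarized per probe set), and the processing notes name Affymetrix Expression Console. The software version and the genome build are not given in the sources used here. The deposited table also holds the authors' averages and fold changes, which were not used. All 6 value columns matched an array, with 0 left over. Of 28944 probe sets, 23530 had a symbol and gave 20405 genes.

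Here limma 3.58.1 (functions lmFit and eBayes, under R 4.3.3) fitted all genes by line alone, p-values were adjusted by Benjamini-Hochberg, and the code was tested on simulated data. Genes named are the 10 members, genes of the S100, partner and receptor lists, and, of the other lists and the chromosome 3 neighbours, up to 4 called genes each of largest change with the defining cell markers. The members and lists were chosen with earlier results of these data known. Gene order and promoters are from RefSeq of GRCm38.p6, which placed 97.5% of genes. An array has no read depth, and the number of arrays limits the precision. Alternatives covered normalization, filters, probe sets, tests, thresholds, a replicate block and left-out arrays. The olfactory receptor background was chosen after the data were seen. Where a gene was under it on all arrays of a line, that line was set to it for an "at least" fold.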

Additional observations from a re-analysis of the deposited data

How the results depend on the processing

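*S100a4* was called higher in all 18 alternatives, with log2 fold changes from 2.32 to 2.56. The counts of members called (1 higher and 0 lower) stayed the same except without a fold threshold (3 higher, 1 lower) and at 1.5-fold (1 lower). These thresholds moved the other counts too, to 6454 and 2245 genes higher and 5066 and 2871 lower over all genes, 13 and 7 chromosome 3 neighbours higher, 9 and 5 EF-hand genes higher and 7 and 5 lower, 4 and 1 other S100 genes higher, and 11 and 5 partners higher and 3 and 2 lower. Partners called higher were 4 with centred arrays, 2 with the mean of probe sets (0 lower) and 0 without the dimmest 50% of genes, a filter that left out *Il1a* and *Alcam*. Receptors called lower were 1 after quantile normalization or centring and 1 to 2 with an array left out, and 1 was called higher without the dimmest 50%. 

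Signs that turned belonged to differences that had not passed as deposited. With centred arrays these were *S100a16* (0.028), *S100b* (0.18), *Cd36* (0.15) and *Nptn* (0.18), and after quantile normalization *S100a9* (−0.00482) and *S100z* (−0.036). With 1 array left out, ranges that crossed 0 were −0.031 to 0.17 for *S100a9* (lowest without M0505 replicate 2), −0.075 to 0.031 for *S100b* (0.0096 without M0505 replicate 2 and highest without STOSE replicate 1), −0.034 to 0.13 for *Ager* and −0.047 to 0.014 for *Nptn* (both turned without STOSE replicate 1). The cause was not tested, except that centring adds 0.20 to every value.

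Replicate numbers are shared by the lines, but deviations from the line means correlated at 0.26, 0.042 and 0.25 for the same numbers, so the pairing was not taken as given, and not every array correlated best with its own number. With the replicate number as a block, 1001 genes were called higher and 1548 lower, 1 member higher and 0 lower, and the adjusted p of *S100a13* was 0.0347. Replicate 1 was the lowest array in both lines for 6 of the 7 members above background, against 18.5% of all genes above background. Several of these members are among the brightest genes, and among the brightest 10% of genes by mean the share was 26.9%. An alternative added after seeing the data, the other probe set of *S100a11*, changed no call of a member.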
